A study of Homo sapiens with 12 samples.

Results

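The 5 signalling genes LEFTY1, LEFTY2, NODAL, TDGF1 and FGF2, known for their roles in human embryonic stem cells, were examined for open chromatin in their surroundings. Chromatin accessibility had been measured by ATAC-seq, in which the Tn5 transposase cuts accessible DNA and tags it for sequencing, so that reads accumulate into called peaks where the DNA is open. The cells were H7, a line of human embryonic stem cells kept in mTeSR Plus medium, and ARPE-19, an immortal line that arose by itself from retinal pigment epithelium, kept in DMEM with fetal bovine serum. Neither line carried an added allele or agent in the labels, each line is a single line, and 3 libraries of 500000 cells per line were deposited as 1 peak list each. The 6 samples of 4C, a chromosome contact assay of the same lines, were not analysed here. A peak belonged to a gene when it lay within 50 kb of the gene's interval on hg19, and it was counted once, for the nearest gene. By this rule 55 of the 170706 peaks of the 6 lists were members. Peaks that overlapped by at least 1 base were merged, and the 55 peaks formed 29 regions, of 81770 merged regions on the autosomes.

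NODAL is a secreted ligand of the TGF-beta superfamily that acts through activin receptors and the SMAD2 and SMAD3 proteins, and this branch of signalling keeps human embryonic stem cells undifferentiated. TDGF1, also called CRIPTO, is a membrane-anchored co-receptor that NODAL needs to reach its receptors. LEFTY1 and LEFTY2 are secreted inhibitors that block NODAL, and both are themselves targets of the pathway, which closes a feedback loop. FGF2, basic fibroblast growth factor, signals through FGF receptors and the ERK cascade and is routinely added to the media of human embryonic stem cells. It is also made by many adult cell types, retinal pigment epithelium among them.

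The lists hold no read totals. The genome-wide background of the peak caller, recovered from each list as a measure of relative depth, was 0.592 to 0.653 expected reads per position in the H7 libraries and 0.425 to 0.483 in the ARPE-19 libraries. The lists nevertheless held 8622 to 15351 peaks in H7, against 40110 to 48460 in ARPE-19. At that background a called peak needed at least 5 to 6 reads at its summit in H7 and 4 in ARPE-19. A region without a peak is therefore one not called in that list, not one shown to be closed. Marker loci of the 2 cell types were not analysed here, so the identity of the lines rests on the labels. The labels do not say whether the libraries of a line came from separate cultures, so a p-value here speaks of the spread among these libraries, which may be technical. With 3 libraries against 3, the exact permutation test cannot give a p below 0.1.

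Fewer peaks were called around the 5 genes in the stem cells than in the epithelial line, but in all windows together these peaks made up a larger share of the stem cell lists. The windows held 6, 7 and 4 peaks in H7 replicates 1, 2 and 3, against 13, 12 and 13 in the ARPE-19 replicates. The mean was 5.67 ± 1.53 peaks in H7 and 12.7 ± 0.577 in ARPE-19 (SD, n = 3 each), a difference of -7 (SE 0.943, exact two-sided permutation p = 0.1). No H7 library reached the count of any ARPE-19 library. Per 10000 autosomal peaks of the list, the windows held 4.07, 5.33 and 4.82 peaks in H7, against 3.02, 3.09 and 2.77 in ARPE-19. Here every H7 library was above every ARPE-19 library, with a difference of 1.78 (SE 0.378, exact permutation p = 0.1). For the 4 genes of the Nodal pathway without FGF2 the lines overlapped, with 1.36, 3.05 and 1.21 in H7 against 1.16, 1.29 and 1.07 in ARPE-19 (exact permutation p = 0.2). The lines also overlapped over all windows among peaks with a -log10 q of at least 5, where the share differed by 1.01 (exact permutation p = 0.2). When the 8622 peaks with the highest -log10 p were taken from every library, the counts were 3, 5 and 4 in H7 against 2, 3 and 4 in ARPE-19, so that the difference in counts turned to 1 (exact permutation p = 0.5), and the share differed by 1.28 (exact permutation p = 0.2). The share was not higher within 25 kb of the genes, where it was 1.47 per 10000 in H7 and 1.80 in ARPE-19 (difference -0.33, exact permutation p = 0.7). Peaks covered 2138, 1801 and 1089 bases of the windows in H7, against 4437, 3681 and 4912 in ARPE-19 (exact permutation p = 0.1). With the lists cut to equal length the means were 1322 bases in H7 and 1685 in ARPE-19 (exact permutation p = 0.4).

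**Figure D1:**
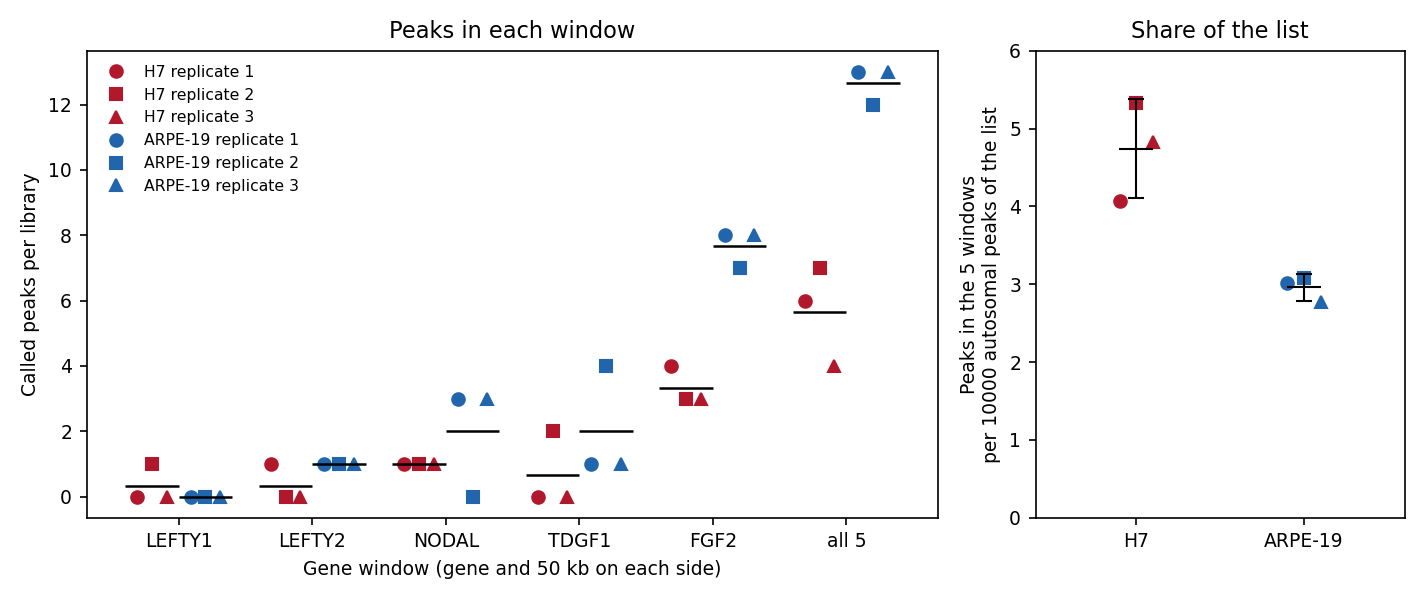
Left, number of called peaks per library in the window of each gene and in all 5 windows, H7 in red and ARPE-19 in blue, with a black line at the mean of 3 libraries. Right, the peaks of the 5 windows per 10000 autosomal peaks of the same list, with the mean and SD of 3 libraries; H7 lies between 4.07 and 5.33 and ARPE-19 between 2.77 and 3.09.

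H7 peaks fell into 13 of the 29 regions and ARPE-19 peaks into 20. H7-only regions, called in 3 H7 and 0 ARPE-19 lists, numbered 1 of 29 (3.45%), against 1.80% of all merged autosomal regions. ARPE-19-only regions, defined the other way, numbered 5 of 29 (17.2%), against 26.1% of all regions. Another 1 of 29 was called in all 6 libraries, a class that held 1.83% of all regions. Of the 13 regions with an H7 peak, 11 had it in 1 H7 library. In all, 8 of 29 regions (27.6%) had a peak in 1 H7 library and in no other, against 16.9% of all regions, and 9 of 29 (31.0%) had one in 1 ARPE-19 library alone, against 29.4%. Peaks of both lines met in 4 of 29 regions (13.8%), against 8.53% of all regions. These shares rest on few regions and were not tested. The H7-only region and the region of all 6 libraries both lay upstream of FGF2, and the 4 genes of the Nodal pathway together had none of either kind among their 15 regions. Of the 8 regions called in 1 H7 library alone, 3 came from replicate 1, 5 from replicate 2 and 0 from replicate 3, which had the shortest list.

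A peak within 1 kb of the gene start was called at 2 of the 5 genes, TDGF1 and NODAL, in both cases in H7 replicate 2 alone. In that library a peak of 161 bases on chromosome 3 from 46615973 to 46616133 covered the start of TDGF1, reaching from -72 to 88 bases around it, with 10 reads at a summit 51 bases before the start. The same library had a peak of 185 bases on chromosome 10 from 72202210 to 72202394, which ended 745 bases before the start of NODAL and had 9 summit reads. Their -log10 q was 4.10 at TDGF1 and 3.22 at NODAL, and they stood at the 56.6th and the 43.0th percentile of the list by that value. No peak lay within 1 kb of any of the 5 starts in H7 replicates 1 and 3 or in any ARPE-19 library. With a -log10 q of at least 5, neither peak was left. The share of all gene starts with a peak was not analysed here, so these counts have no genome-wide rate beside them. In ARPE-19 the peak nearest to a start lay 15.6 to 28.3 kb from that of FGF2, 15.8 to 17.6 kb from that of TDGF1, 16.9 kb from that of LEFTY2, 23.1 to 63.3 kb from that of NODAL and at most 35.1 kb from that of LEFTY1.

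The 250 bases before the start of the 2 genes with such a peak, and of FGF2 for contrast, are shown as the sequence next to each start; the NODAL peak lies farther upstream and is not in its stretch. They are from RefSeq on GRCh38.p14, 5′ to 3′ on the strand of the gene, and their positions are not those of the hg19 peaks. Sequences were found for 3 of the 5 genes. For TDGF1, listed as CRIPTO, RefSeq has 2 starts, and the upstream one is given; it was not matched to the start of the hg19 interval. It lies at chr3:46574285-46574534 on the plus strand. The NODAL stretch is chr10:70441682-70441931 on the minus strand, and the FGF2 stretch is chr4:122826581-122826830 on the plus strand. Capitals mark the letters GGGCGG or their reverse complement CCGCCC, the core of a GC box.
TDGF1: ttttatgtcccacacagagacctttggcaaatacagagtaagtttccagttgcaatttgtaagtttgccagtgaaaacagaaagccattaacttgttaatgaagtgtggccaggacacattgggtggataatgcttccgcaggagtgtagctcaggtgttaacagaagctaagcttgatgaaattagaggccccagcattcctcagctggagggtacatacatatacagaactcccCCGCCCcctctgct
NODAL: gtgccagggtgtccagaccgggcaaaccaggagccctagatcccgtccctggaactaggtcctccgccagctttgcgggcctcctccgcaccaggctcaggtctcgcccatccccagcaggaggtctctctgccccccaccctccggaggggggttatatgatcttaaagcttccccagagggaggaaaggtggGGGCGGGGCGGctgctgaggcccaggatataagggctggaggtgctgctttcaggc
FGF2: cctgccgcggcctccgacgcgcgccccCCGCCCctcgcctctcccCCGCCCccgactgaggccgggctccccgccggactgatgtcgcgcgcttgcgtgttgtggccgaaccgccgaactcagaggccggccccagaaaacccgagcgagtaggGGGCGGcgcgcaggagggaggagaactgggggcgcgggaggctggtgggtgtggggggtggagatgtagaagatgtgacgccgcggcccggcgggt

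The stretch printed for TDGF1 held 45.6% G and C and 2 CG dinucleotides, and the one before its second start, not printed, held 51.2% and 9. NODAL had 65.2% and 9, and FGF2 had 75.2% and 33, beside medians of 58% and 11 over the 35116 RefSeq promoters of the same length. The GC box, which binds SP1 and related factors, matched at 1 place before the printed TDGF1 start and at 2 before the second, at 2 overlapping places before NODAL and at 3 before FGF2, and 42.6% of all promoters hold it. Another 5 motifs, searched on both strands, had no match in any of these windows. They were the TATA box TATAAA (in 10.7% of all promoters), the octamer ATGCAAAT of POU factors such as OCT4 (1.63%), the SMAD box GTCTAGAC (0.182%), the FOXH1 element AATCCACA (0.709%) and the AP-1 element TGANTCA (6.57%). A match or its absence describes these letters in this window and nothing more.

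NODAL lies on chromosome 10 from 72192070 to 72201465 and is read from the minus strand. Its window held 1, 1 and 1 peaks in H7, against 3, 0 and 3 in ARPE-19 (difference -1, exact permutation p = 0.4). The counts of the lines overlapped, because ARPE-19 replicate 2 had no peak there. No peak of either line lay inside the gene. The 3 H7 peaks were in 3 different regions, each called in 1 H7 library. Besides the one next to the start, a peak of H7 replicate 1 lay 36.9 kb upstream, on chromosome 10 from 72238406 to 72238704, with 8 summit reads. A peak of H7 replicate 3 lay 49.5 kb downstream, from 72142355 to 72142566, with 11 summit reads. That last place was also called in ARPE-19 replicates 1 and 3, with 12 and 14 summit reads. Both lines thus had a call there, H7 in 1 library with a -log10 q of 3.19. All ARPE-19 peaks of the window lay downstream of NODAL. The region from 72178085 to 72178373, 13.7 kb from the gene, had 8 and 10 summit reads in ARPE-19 replicates 1 and 3. The other 2 places, each in 1 ARPE-19 library, had 6 reads. In RefSeq's gene order EIF4EBP2, a repressor of cap-dependent translation, lies on that downstream side and PALD1 on the upstream side. Which gene a region on either side serves was not tested. Whether the peak 36.9 kb upstream lies at the start of PALD1 was not analysed here. Nor was it analysed whether any downstream peak lies inside EIF4EBP2 or at its start. The 50 kb limit fell close to peaks here: the shared place was 49.4 to 49.5 kb from NODAL, and the next H7 peaks, with 8 and 7 summit reads in replicates 3 and 2, were 52.1 and 52.3 kb away and stayed outside.

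TDGF1 lies on chromosome 3 from 46616045 to 46623953 and is read from the plus strand. Its window held 0, 2 and 0 peaks in H7, against 1, 4 and 1 in ARPE-19 (difference -1.33, exact permutation p = 0.5). In each line replicate 2 had most of the peaks. Beyond the peak over the start, H7 replicate 2 had a weak one 25.6 kb downstream, on chromosome 3 from 46649516 to 46649734, with 6 summit reads. The epithelial line instead had a region 17.5 kb upstream, from 46598322 to 46598547, in all 3 libraries and in no H7 library. It had 9, 6 and 11 summit reads in ARPE-19 replicates 1, 2 and 3, with its summits within 57 bases of each other. The 3 other ARPE-19 regions were each called in replicate 2 alone, with 4 to 6 summit reads, close to the fewest that could be called. H7 replicates 1 and 3 had no peak closer to the TDGF1 start than 885 and 806 kb. LRRC2 and FAM240A are the neighbouring coding genes in RefSeq's order.

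The inhibitor genes LEFTY1 and LEFTY2 lie side by side on chromosome 1, near-identical copies transcribed from the minus strand, LEFTY1 from 226073982 to 226076843 and LEFTY2 from 226124298 to 226129083. Reads from sequence that the copies share cannot be told apart, and how such reads were treated was not given in the sources used here. No peak of any library lay inside either gene or within 9 kb of either start. The 50 kb windows of the copies overlap, and each peak was counted for the nearer gene. By that rule the LEFTY1 window held 0, 1 and 0 peaks in H7, against 0 in every ARPE-19 library (exact permutation p = 1). Its single peak, in H7 replicate 2, lay 10.2 kb upstream of LEFTY1 from 226087004 to 226087460. It was also within 50 kb of LEFTY2, 41.6 kb from that start. It was 457 bases wide with 10 summit reads, at the 49.4th percentile of its list. The LEFTY2 window held 1, 0 and 0 peaks in H7, against 1, 1 and 1 in ARPE-19 (difference -0.67, exact permutation p = 0.4). The H7 peak lay 9.69 kb upstream of LEFTY2, from 226138769 to 226138959, with 8 summit reads in replicate 1. Each of the inhibitor genes had an H7 peak about the same distance upstream, each in a different library and each absent from the ARPE-19 lists. Their -log10 q was 3.69 at LEFTY1 and 3.13 at LEFTY2. Of all merged autosomal regions, 16.9% were called in 1 H7 library alone, and whether these places correspond was not tested. The ARPE-19-only region between the copies, from 226111804 to 226112179 and 12.1 kb downstream of LEFTY2, had 9, 16 and 12 summit reads in replicates 1, 2 and 3.

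**Figure D2:**
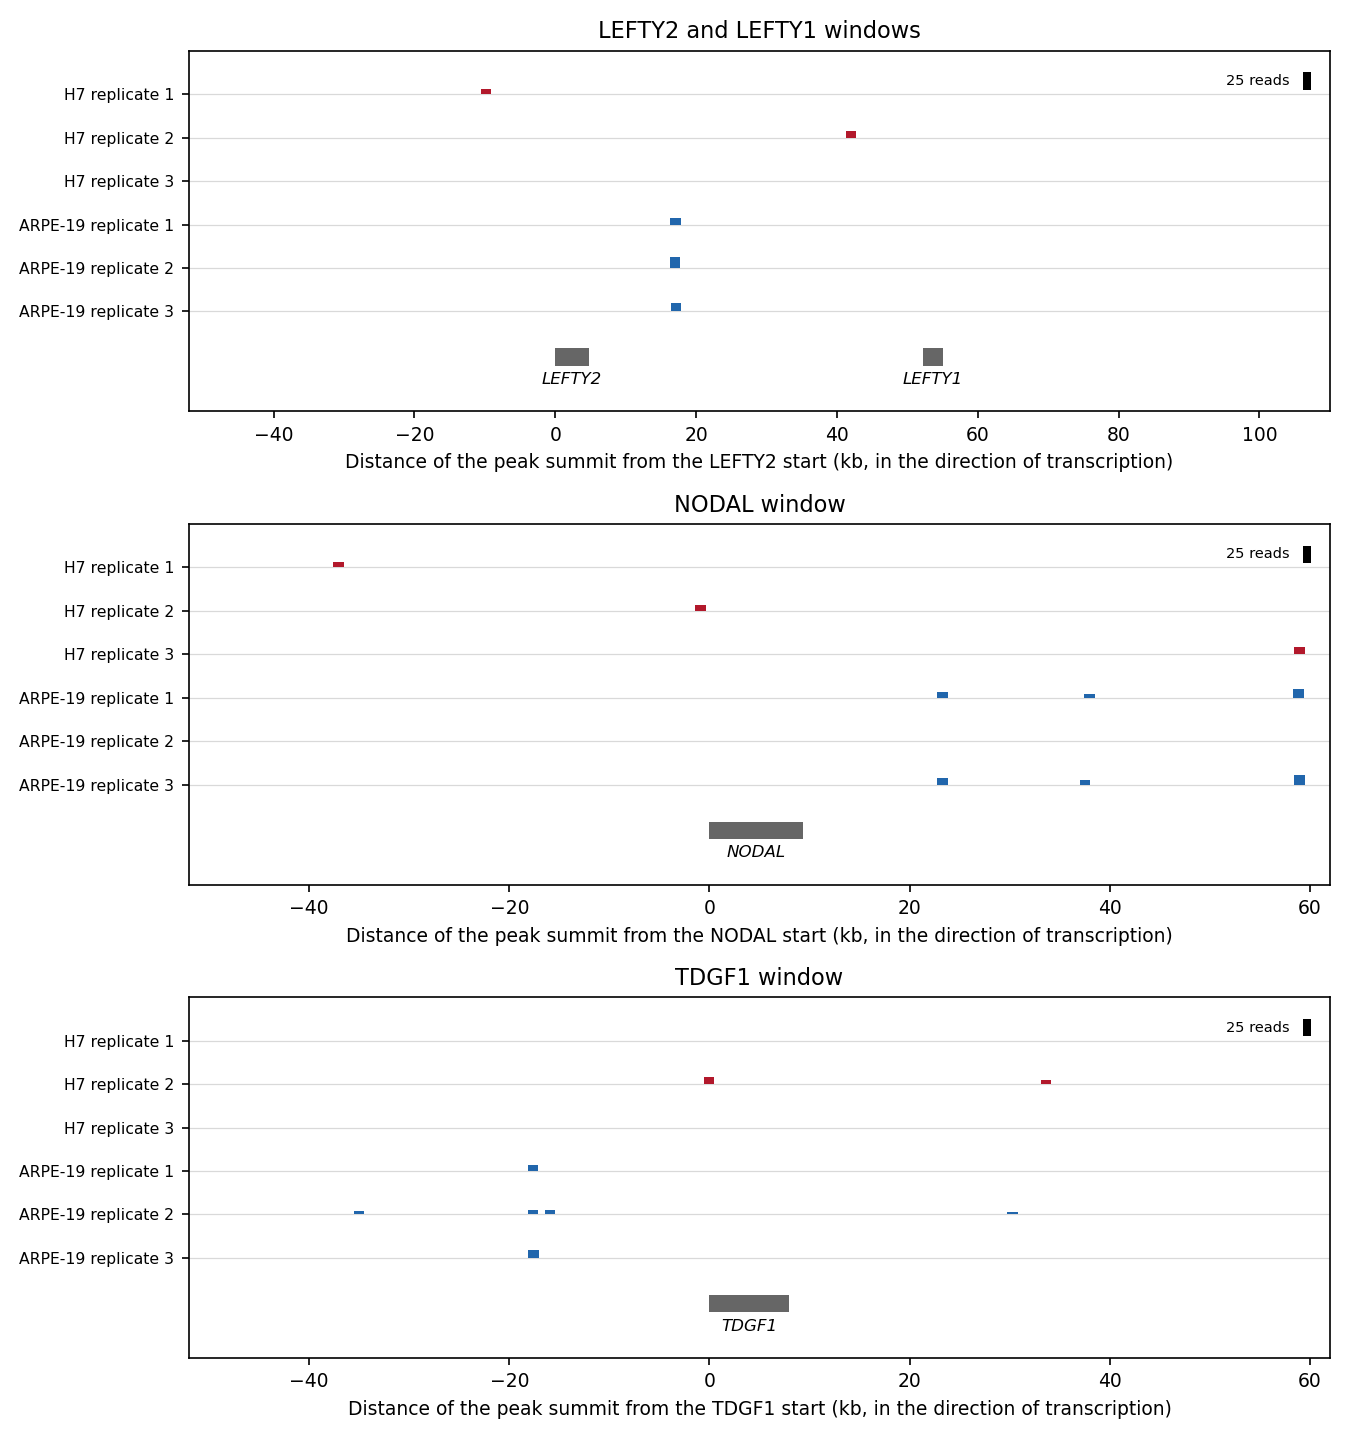
Called peaks around LEFTY2 and LEFTY1, NODAL and TDGF1, by distance of the summit from the gene start in kb along the direction of transcription (from the LEFTY2 start in the first panel), with 1 track per library, H7 in red above ARPE-19 in blue. Bar height gives the reads at the summit (scale bar 25 reads), bars are drawn wider than the peaks, and grey boxes are the genes; peaks at the starts of NODAL and TDGF1 appear in H7 replicate 2 alone.

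FGF2, on chromosome 4 from 123747863 to 123819390 and read from the plus strand, had 14 of the 29 regions, and the member peak with the most summit reads was one of its peaks in each line. Its window, the widest of the 5 because the gene is the longest, held 4, 3 and 3 peaks in H7, against 8, 7 and 8 in ARPE-19. The mean was 3.33 ± 0.577 in H7 and 7.67 ± 0.577 in ARPE-19 (SD, n = 3 each), a difference of -4.33 (SE 0.471, exact permutation p = 0.1), and the counts did not overlap. With the lists cut to equal length the means were 2.67 in H7 and 3 in ARPE-19, a difference of -0.33 (exact permutation p = 1). Per 10000 autosomal peaks the order was the other way, with 2.72, 2.29 and 3.62 in H7 against 1.86, 1.80 and 1.70 in ARPE-19 (exact permutation p = 0.1). By position, of 6 regions with an H7 peak, 4 were upstream, 1 inside FGF2 and 1 downstream. Of 11 regions with an ARPE-19 peak, 4 were upstream, 4 inside FGF2 and 3 downstream.

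**Figure D3:**
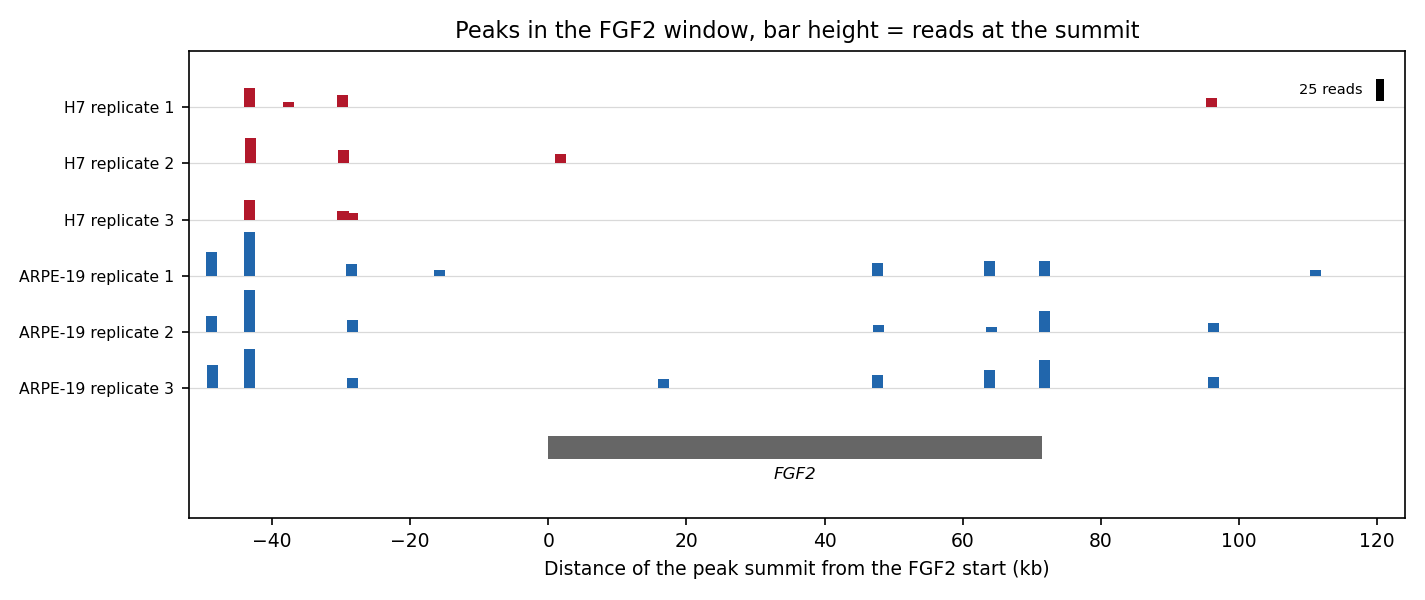
Called peaks in the FGF2 window by distance of the summit from the FGF2 start in kb, with 1 track per library, H7 in red above ARPE-19 in blue. Bar height gives the reads at the summit (scale bar 25 reads), bars are drawn wider than the peaks, and the grey box is the gene; all 6 libraries share the tall bar upstream, while the bars over the 3′ part of the gene are of ARPE-19.

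The region called in all 6 libraries lay 42.7 kb upstream of FGF2, on chromosome 4 from 123704354 to 123705129. It had 21, 28 and 22 summit reads in H7 replicates 1, 2 and 3, against 49, 47 and 44 in ARPE-19. Every H7 value was below every ARPE-19 value, although the region stood at the 95.9th to 99.4th percentile of the H7 lists and at the 98.5th to 99.5th of the ARPE-19 lists. Over the genome-wide background of the library, the summit was 32.1, 47.3 and 34.8 times higher in H7, against 101, 103 and 103 times in ARPE-19. On the log2 scale the mean was 5.23 ± 0.29 in H7 and 6.68 ± 0.014 in ARPE-19 (SD, n = 3 each), a difference of -1.45 (SE 0.17, exact permutation p = 0.1). In 69.1% of the 1495 autosomal regions called in all 6 libraries every H7 value was below every ARPE-19 value, and their median difference was -0.90, with quartiles of -1.31 and -0.46. The summits of the lines fell together, at 123704631 to 123704688 in H7 and 123704626 to 123704629 in ARPE-19. By the deposited fold enrichment, the reads at the summit over the local background, the log2 difference was -0.72. The peaks were 667, 388 and 266 bases wide in H7, against 734, 573 and 536 in ARPE-19, and the widths of the lines overlapped.

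A pair of neighbouring regions about 29 kb upstream of FGF2 differed in which line called them. The H7-only region, from 123717824 to 123718302, was called with 13, 15 and 10 summit reads in H7 replicates 1, 2 and 3 and in no ARPE-19 library. It stood at the 77.0th, 86.8th and 48.6th percentile of the H7 lists. The next region, 769 bases closer to the gene, from 123719072 to 123719669, had 13, 14 and 12 summit reads in ARPE-19 replicates 1, 2 and 3. There H7 had a peak in replicate 3 alone, with 7 summit reads and at the 2.12th percentile of its list. The summits lay within 108 bases of each other in the 3 H7 libraries at the first region, and within 103 bases in the 3 ARPE-19 libraries at the second. In all, 1470 autosomal regions had this H7-only pattern. The H7-only call was lost with a -log10 q of at least 5, since the peak of replicate 3 had 4.08. It was also lost when peaks had to cover 50% of the merged region, as was the call of the region 42.7 kb upstream in all 6 libraries. It held when all lists were shortened to 8622 peaks.

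**Figure D4:**
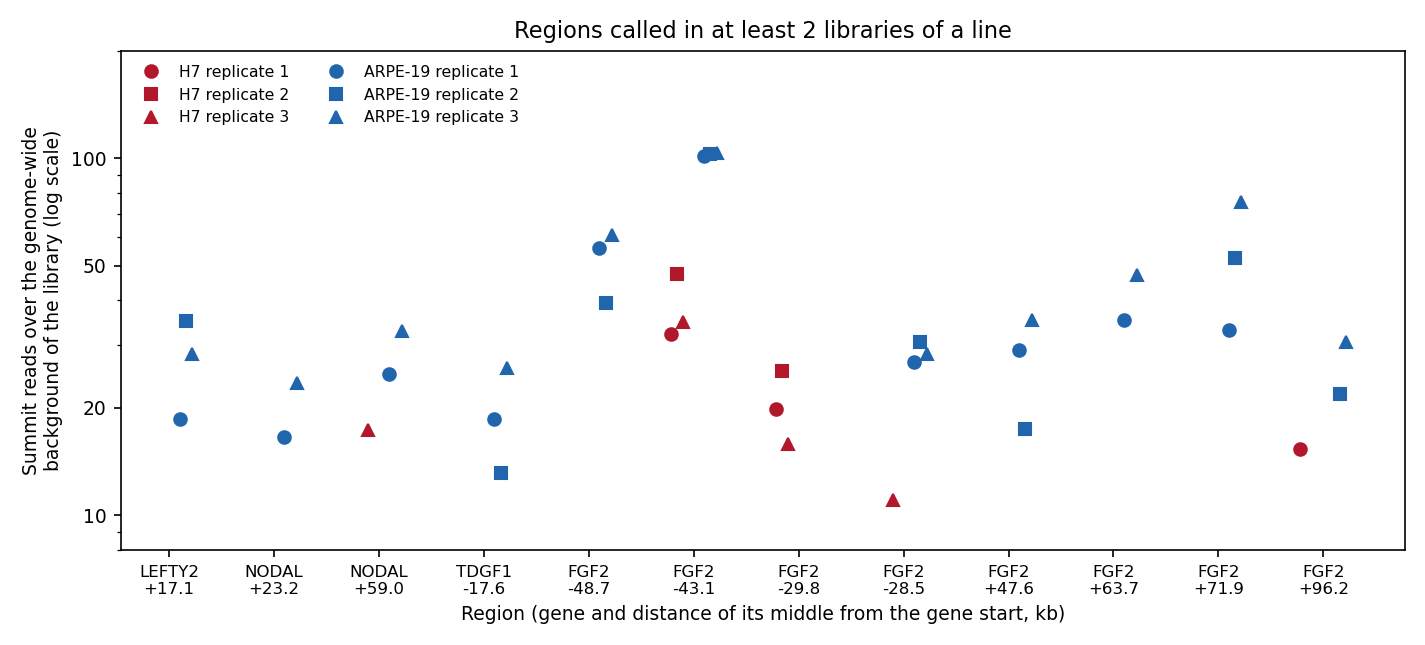
Reads at the summit over the genome-wide background of the library, on a log scale, for the regions called in at least 2 libraries of a line, with 1 point per library that called the region, H7 in red left of ARPE-19 in blue. Labels give the gene and the distance of the region's middle from the gene start in kb. The highest points of each line are those of the region near -43.1 kb of FGF2, 32.1 to 47.3 in H7 and 101 to 103 in ARPE-19. No point means no call.

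The remaining regions of FGF2 that were called in 3 of 3 libraries belonged to ARPE-19. The one farthest upstream, 48.3 kb from the gene and from 123698821 to 123699550, had 27, 18 and 26 summit reads in ARPE-19 replicates 1, 2 and 3. A region inside the gene, whose place relative to exons was not analysed here, 47.6 kb past the start and from 123795247 to 123795734, had 14, 8 and 15. Another began 81 bases past the 3′ end of FGF2, from 123819471 to 123820078, with 16, 24 and 32. None of the 3 had an H7 peak. A further place inside the gene, from 123811316 to 123811835, had 17 and 20 summit reads in ARPE-19 replicates 1 and 3, and replicate 2 had a separate peak of 6 reads 122 bases beyond it. NUDT6, transcribed antisense to FGF2, overlaps its 3′ end, so peaks there cannot be given to one of these genes. A region 24.4 kb downstream, from 123843762 to 123844305, had 10 summit reads in H7 replicate 1 and 10 and 13 in ARPE-19 replicates 2 and 3. Whether that region lies at the start of NUDT6 or of another neighbouring gene was not analysed here. The H7 peak nearest to the FGF2 start lay inside the gene, from 123749539 to 123749719 and 1676 bases past the start, in replicate 2 with 10 summit reads.

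In the windows of the 4 genes of the Nodal pathway, 7 H7 peaks had 6 to 11 summit reads and stood at the 17.0th to 56.6th percentile of their lists. The 15 ARPE-19 peaks had 4 to 16 reads and stood at the 2.26th to 73.0th percentile. FGF2 peaks had 6 to 28 reads and stood at the 2.12th to 99.4th percentile in H7, and had 6 to 49 reads and stood at the 9.80th to 99.5th in ARPE-19. The upper ends are those of the region 42.7 kb upstream. Widths over all 5 windows had a median of 219 bases in H7 (158 to 667) and 288 bases in ARPE-19 (148 to 734). Ranks within lists of different length cannot show whether signal changed between the lines.

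**Figure D5:**
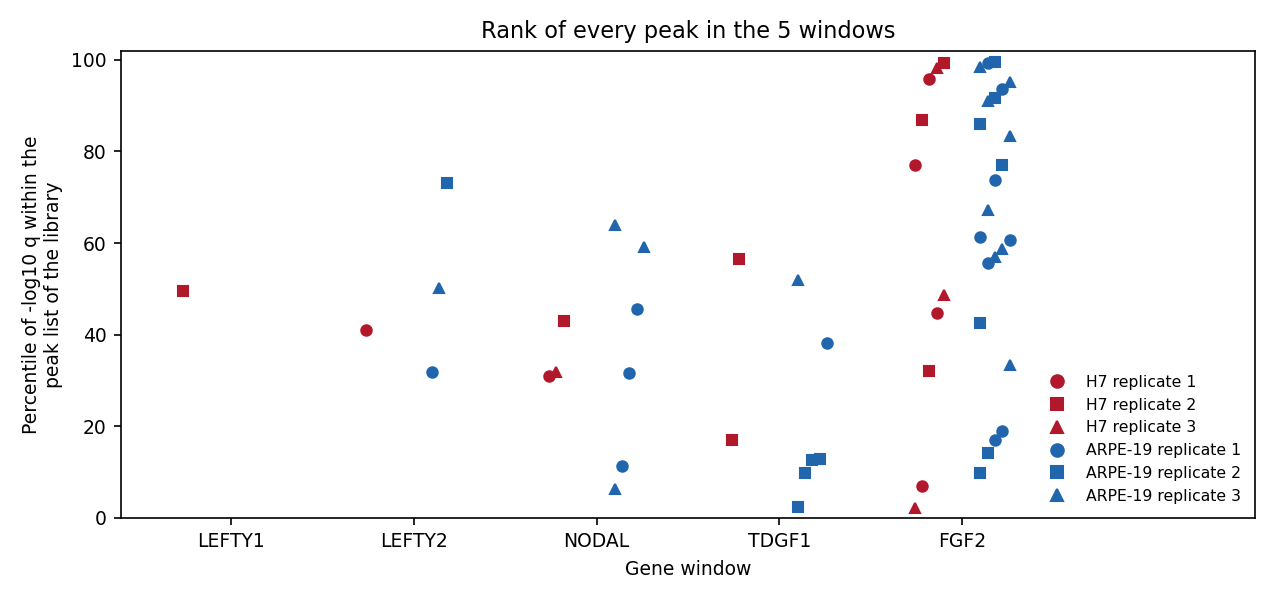
Percentile of each peak's -log10 q within the peak list of its own library, for all 55 peaks of the 5 windows, H7 in red left of ARPE-19 in blue. Peaks of FGF2 reach the 99.4th percentile in H7 and the 99.5th in ARPE-19, while H7 peaks of the other 4 genes stay at or below the 56.6th.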

How the data were processed

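The deposited files are 1 narrowPeak list for each ATAC-seq library, so peak calling was separate for every library. Per the submitters' processing notes, MACS2 and bedtools were used on hg19, with no versions. The aligner, the handling of duplicates and multiply mapped reads and any Tn5 shift are not given in the sources used here. The deposited score is 10 times the -log10 q of the peak. Fold enrichment, also deposited, is the ratio of summit reads plus 1 to the local background plus 1 of the same library. Each deposited -log10 p and -log10 q belongs to a test within 1 library. All are the authors' values per peak.

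The members and lists were chosen with earlier results of these data known. Gene intervals on hg19 came with the member list. All 5 genes are named, and the regions named are those in at least 2 libraries of a line, near a start, or of highest rank per gene and line. Coordinates of 3 more H7 peaks (36.9 kb upstream of NODAL, 25.6 kb downstream of TDGF1 and inside FGF2) are given outside this rule, after their values were seen. Other genes of the pathways were not placed, because no gene models of hg19 were used. Summit reads and background were solved from fold and -log10 p (Poisson upper tail, within 0.001 for every member peak), a step tested on simulated data. The most frequent background of a list is its genome-wide background. Reads may include duplicates, and the lists limit precision to counting error at 4 or more reads. Library values were compared by exact two-sided permutation of 20 assignments, and the p-values printed per gene are not adjusted over the 5 genes. The planned Benjamini-Hochberg adjustment of these permutation p-values gave 0.5 for FGF2 and 0.625 for LEFTY2, NODAL and TDGF1, with LEFTY1 above these. Percentiles are by -log10 q within a list. Positions are 1-based. The alternatives tried were stricter peaks (-log10 q from 5), equal list lengths, windows of 25 and 100 kb, 50% overlap, looser classes, other distances from the start, the deposited fold, leaving out each library, and pairing by replicate number. Computation used scipy 1.17.1, pandas 2.3.3 and numpy 2.4.6 under Python 3.11.15, and drawing used matplotlib 3.10.9.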

Additional observations from a re-analysis of the deposited data

How the results depend on the processing

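With 3 libraries per line no setting could bring an exact permutation p below 0.05, so only values and directions are compared. With every list shortened to 8622 peaks, the difference in peaks, H7 minus ARPE-19, turned to 1 over all windows, to 0.67 for NODAL and to 0.33 for TDGF1, was 0 for LEFTY2, and shrank to -0.33 for FGF2 and to -362 for covered bases; ARPE-19-only regions fell to 1 and merged regions to 11, since that setting shortens 5 of the 6 lists. Within 25 kb the share of the list turned to -0.33 per 10000 peaks, and there were 0 H7-only regions, 0 regions of all 6 libraries and 17 merged regions. Within 100 kb the LEFTY1 difference turned to -1, and 2 regions were called in all 6 libraries. With a -log10 q of at least 5, fewer peaks enter by construction: LEFTY1 had a difference of 0, H7-only regions numbered 0, ARPE-19-only regions 3 and merged regions 13, and H7 had a peak at 0 gene starts. Peaks over at least 50% of the region left 0 H7-only regions and 0 of all 6 libraries. Within 250 bases of the start, 1 gene had an H7 peak.

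Leaving out each library in turn gave differences of -7.67 to -6.17 over all windows, 0 to 0.5 for LEFTY1 (0 without H7 replicate 2), -1 to -0.5 for LEFTY2, -2 to -0.5 for NODAL and -2 to -0.33 for TDGF1. For NODAL the value was -2 without ARPE-19 replicate 2, and for TDGF1 it was -0.33 without that library. The ranges were -4.67 to -4.17 for FGF2, 1.49 to 2.12 per 10000 peaks for the share, and -1.62 to -1.34 (log2) for the summit signal 42.7 kb upstream of FGF2. There was 1 H7-only region each time, and 5 to 7 ARPE-19-only regions.

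Deviations from the line mean were correlated between same-numbered libraries over the 1495 regions of all 6 libraries. The correlation was -0.0092, 0.024 and -0.020 for replicates 1, 2 and 3, and -0.031 to 0.041 for libraries of different number. A shift shared by whole libraries drops out of this correlation, so it cannot show whether the libraries were paired. With the replicate number as a block, the differences were the same by construction, -7 over all windows among them, with an exact sign-flip p of 0.25, the smallest that 3 pairs allow.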

Other observations

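Between 50 and 100 kb from the 5 genes, outside the windows of the report, 12 more regions were called, 2 with an H7 peak and 11 with an ARPE-19 peak. One of them was called in all 6 libraries and is described here after its values were seen. It lay 93.8 to 94.0 kb upstream of FGF2, on chromosome 4 from 123653339 to 123654106, and had 36, 33 and 38 summit reads in H7 replicates 1, 2 and 3, against 26, 20 and 34 in ARPE-19. It stood at the 99.6th to 99.7th percentile of the H7 lists and at the 88.5th to 96.7th of the ARPE-19 lists. Over the genome-wide background of the library, the log2 summit signal was 5.83 ± 0.067 in H7 and 5.84 ± 0.44 in ARPE-19 (SD, n = 3 each, exact permutation p = 1). The values of the lines overlapped here, which they did not at the region 42.7 kb upstream of FGF2, where the log2 difference was -1.45; whether the regions differ in this was not tested. In RefSeq's gene order the coding gene before FGF2 is BBS12, which encodes a protein of the Bardet-Biedl complex of cilia, and whether the region lies at its start was not analysed here.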
